A study of Homo sapiens with 12 samples.

Results

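Afatinib is a covalent inhibitor of ERBB receptors that binds through a cysteine at the edge of the ATP pocket, and a few other kinases carry a cysteine at the same place. The 9 candidate genes examined here were taken by name from the count table: the receptor tyrosine kinases EGFR, ERBB2, ERBB3 and ERBB4, the Tec-family kinases TXK, TEC, BTK and BMX, and the SRC-family kinase BLK. They are 9 of the 59050 gene names counted, and 8 of them have a cysteine codon at that place. ERBB3 has a serine codon there. The cells were MyLa, an established human cell line of cutaneous T-cell lymphoma (CTCL), grown with 20 ng/mL interleukin-2. Cells of this single line were treated for 24 h and fell into 4 groups of 3 libraries: DMSO (the solvent), 3.2 nM romidepsin (a histone deacetylase inhibitor), 5.7 uM afatinib dimaleate, or both drugs, here called the combination. The DMSO volume was matched to that of the combination in all groups. The study asked how the 2 drugs act together in CTCL; the question here is which of the candidate kinases were transcribed at all and how the transcribed ones moved. Only RNA was measured, not the kinase proteins or the binding of the drug.

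ERBB receptors sit in the cell membrane of epithelial and other cells, bind EGF-type ligands or, in the case of ERBB2, pair with other receptors without a known ligand of their own, and pass the signal through adaptors to the RAS and PI3K pathways. ERBB3 has little or no kinase activity and works mainly as a partner in pairs. Tec-family kinases act below antigen receptors: they are drawn to the membrane by the lipid made by PI3K and phosphorylate phospholipase C gamma. TXK and TEC are known from T cells, BTK is known from B cells and myeloid cells, and BMX from endothelium and myeloid cells. BLK is a SRC-type kinase known mainly from the B-cell receptor pathway.

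The cysteine can be read as a codon in the reference coding sequence, and the windows below show the codons at its place. Coding sequences came from GENCODE 29 (GRCh38), the longest coding transcript of each gene, and the translations were aligned. The column used was the only one with cysteine in every member except ERBB3 and another residue in ERBB3. Each line gives 10 codons before and 10 after it, 5′ to 3′ on the coding strand, with the aligned codon in capitals.
EGFR: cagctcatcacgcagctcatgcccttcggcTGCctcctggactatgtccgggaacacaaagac
ERBB2: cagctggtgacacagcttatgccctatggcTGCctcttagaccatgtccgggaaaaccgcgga
ERBB3: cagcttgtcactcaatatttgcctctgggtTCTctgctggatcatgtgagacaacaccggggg
ERBB4: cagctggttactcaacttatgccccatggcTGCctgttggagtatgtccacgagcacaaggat
TXK: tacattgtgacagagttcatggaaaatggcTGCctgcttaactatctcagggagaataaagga
TEC: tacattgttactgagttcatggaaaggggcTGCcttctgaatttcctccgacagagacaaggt
BTK: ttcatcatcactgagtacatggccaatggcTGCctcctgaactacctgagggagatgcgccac
BMX: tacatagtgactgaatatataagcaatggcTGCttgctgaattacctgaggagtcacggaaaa
In 8 of the 9 genes the codon was TGC, which encodes cysteine, and in ERBB3 it was TCT, a serine codon, at codon 794. The rule for the column fixed the cysteines and the exception of ERBB3 in advance, so they do not test the label of the set. The cysteine was codon 797 in EGFR, 805 in ERBB2, 803 in ERBB4, 350 in TXK, 449 in TEC, 515 in the long BTK transcript used, 496 in BMX and 319 in BLK, whose sequence is not printed. The codon lay in exon 20 in all 4 ERBB genes, and in exon 11 of TXK and exon 14 of TEC. Of the 2 further kinases examined that are described as having this cysteine, JAK3 had TGC in this column, at codon 909. MAP2K7, a distant relative, had ACC at codon 217 in the column and TGC at the next codon, 218, so the alignment did not resolve its position. None of 14 other kinases in the alignment had a cysteine codon there.

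Libraries held 8972228 to 12696653 counted read pairs, and 3 counts, the level below which a gene is not told from 0 here, corresponded to 0.229 to 0.344 CPM (counts per 1e6 read pairs, scaled by TMM factors). Since no label names separate cultures for the replicates, every p-value refers only to the spread among the libraries sequenced, which may be technical. Of 20 T-cell markers, CD2, CD3D, TRAC, IL2RA and CCR4 were counted in every library, while CD3E, CD4, CD7 and LCK reached at most 4, 1, 2 and 1 counts in any library. KRT5, a keratin of basal epidermis, was counted at 59 and 94 in DMSO libraries 1 and 2, 126 in afatinib library 3 and 43 in combination library 1, and at no more than 1 in the other 8. Because ERBB receptors are known from epithelium, each ERBB2 comparison is given below with and without those 4 libraries. Leaving them out leaves 1 DMSO, 3 romidepsin, 2 afatinib and 2 combination libraries, so every value without them that involves DMSO rests on DMSO library 3 alone, which is assumed to vary like the other groups. DMSO library 3 also had the highest ERBB2 level of the 3, at 6.04 CPM.

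In all, 4 of the 9 genes were transcribed at a mean of at least 1 CPM in some group: ERBB2, TXK, TEC and BLK. With 1 library left out that number was 4 to 5. At a mean of at least 0.5 CPM it was 6, with EGFR (0.604 in DMSO, 0.611 in afatinib) and ERBB3 (0.893 in the combination) added. ERBB2, TXK, TEC and BLK passed the filter on low counts and were tested, TXK only through the groups with romidepsin, in which it was high. Of the other 5, BMX, BTK and ERBB4 were at or near the counting limit, and EGFR and ERBB3 were low but above it in some libraries. BMX had 0 counts in all 12 libraries, which allows at most 3 counts in each. BTK had 1 count in all, in romidepsin library 2. ERBB4 had 2 and 3 counts in romidepsin libraries 1 and 2, 3 counts in afatinib library 3 and 0 in the other 9. EGFR had 0 to 13 counts per library and 67 in total, and ERBB3 1 to 18 and 72 in total. For these genes the counts bound a difference between groups only loosely. The plot of the members by library shows these levels.

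**Figure D1:**
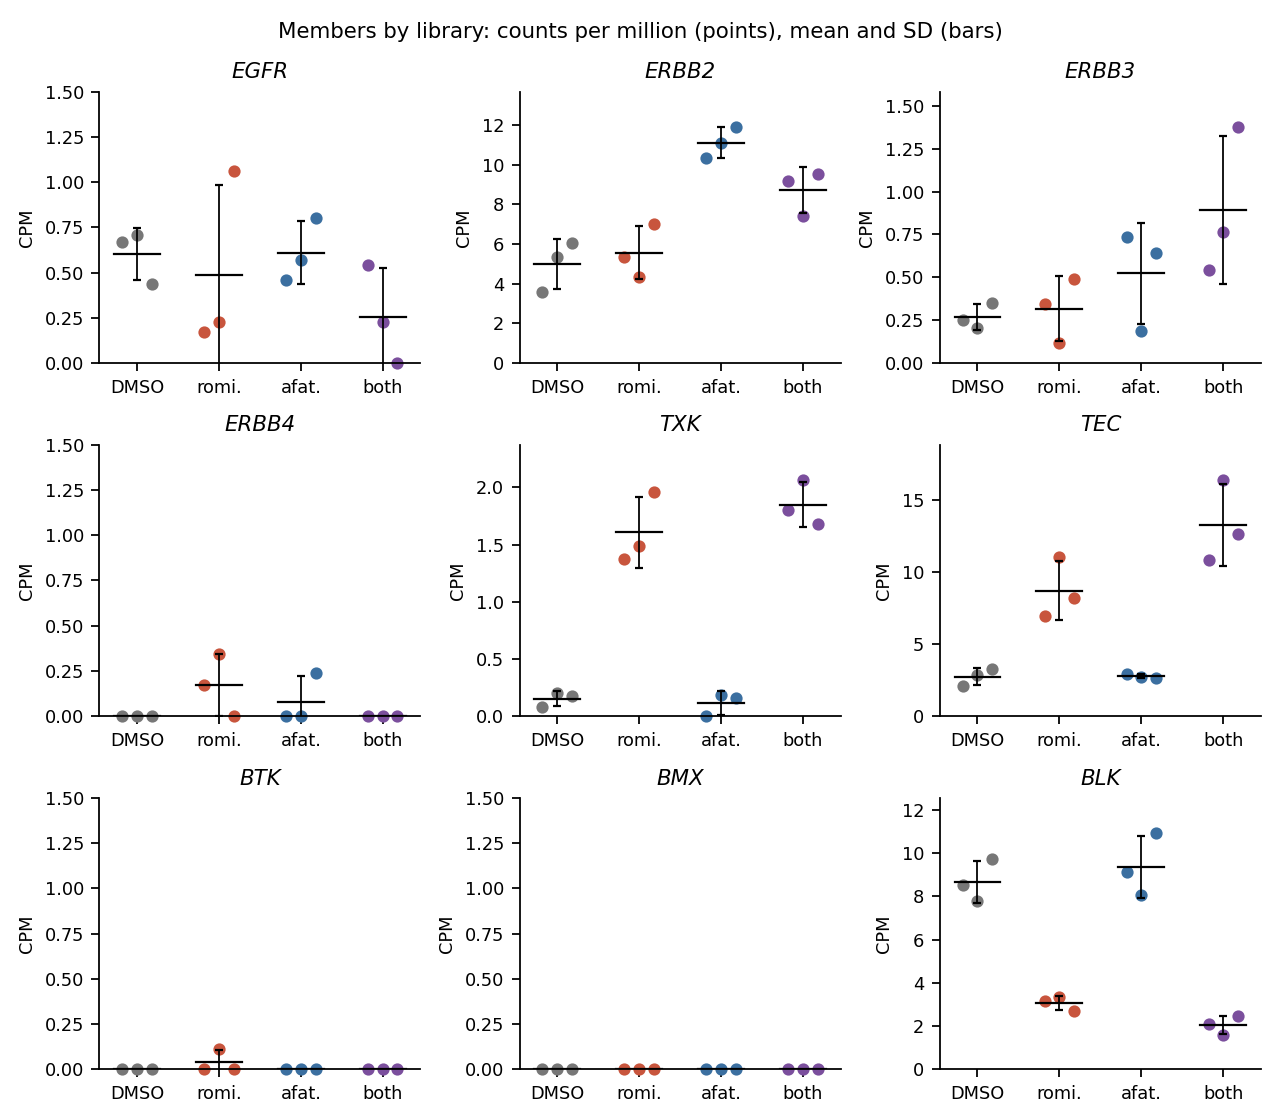
CPM (y axis, scaled by TMM factors) of the 9 kinases in each library (points) of the DMSO, romidepsin, afatinib and combination (both) groups, with the mean (horizontal line) and SD (error bar) of 3 libraries. ERBB2 is high in the 6 libraries with afatinib, TXK and TEC in the 6 with romidepsin, and BLK in the 6 without romidepsin; the y axes differ between genes and do not fall below a top of 1.5 CPM.

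Romidepsin raised TXK and TEC and lowered BLK, afatinib raised ERBB2, and the combination did all of these. In edgeR's quasi-likelihood test, adjusted by Benjamini-Hochberg over the 16208 genes tested, 3 of the 4 tested members were called at an adjusted p under 0.05 in romidepsin against DMSO, where 62.6% of all tested genes were called. In afatinib against DMSO 1 of 4 was called (45.4% of all tested genes), and in the combination against DMSO 4 of 4 (74.3%). The combination differed from romidepsin in 3 of 4, 2 higher and 1 lower (54.3% of all tested genes, 25.1% higher and 29.2% lower), and from afatinib in 3 of 4, also 2 higher and 1 lower (69.2%, 33.4% higher and 35.8% lower). The shares of calls over all genes are so high that these counts do not set the members apart.

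**Figure D2:**
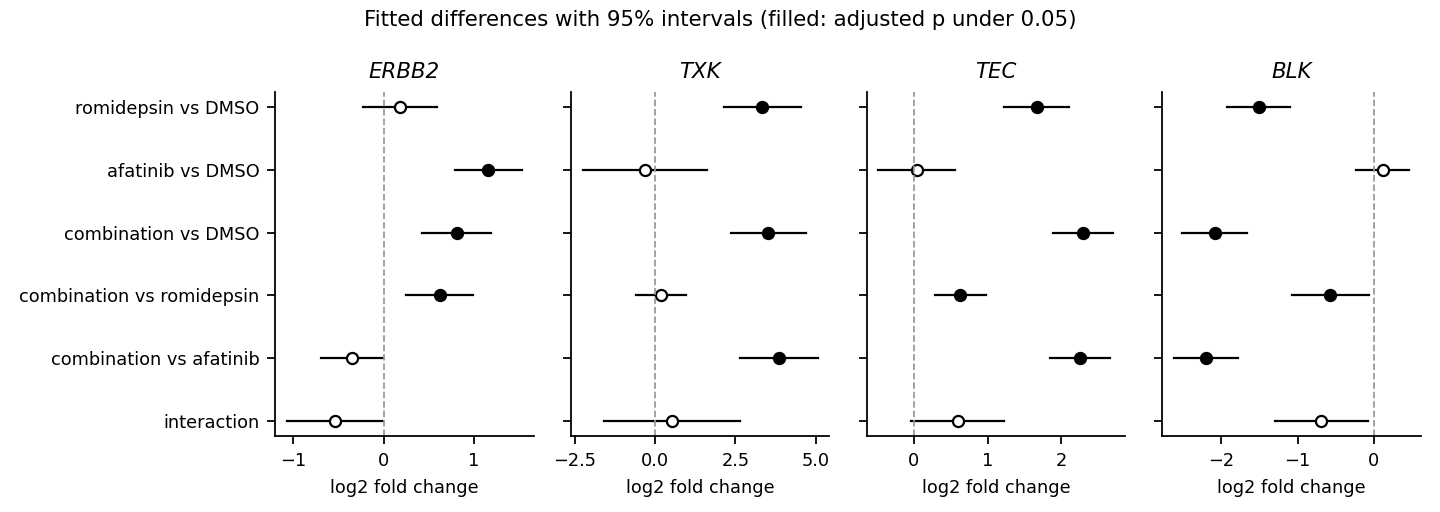
Log2 fold change (x axis, point) with its 95% interval (line) from the edgeR fit for the 4 tested members in 6 comparisons (y axis); filled points have an adjusted p under 0.05, and the x axes differ between genes. ERBB2 lies at 1.16 in afatinib and near 0 in romidepsin, while TXK (3.33), TEC (1.66) and BLK (-1.51) move in romidepsin. In afatinib TEC and BLK lie near 0, and TXK has a wide interval of -2.26 to 1.61.

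ERBB2, the receptor without a known ligand that pairs with the other ERBB receptors, was the only ERBB gene above 1 CPM in the mean of any group among these libraries. It was at 3.59, 5.35 and 6.04 CPM in the DMSO libraries and at 10.3, 11.1 and 11.9 CPM in the afatinib libraries. All 3 afatinib libraries lay above all 3 DMSO libraries. The log2 fold change was 1.16 (SE 0.19, adjusted p = 9.93e-07), a 2.23-fold difference. Without the 4 libraries with keratin reads, with 2 afatinib libraries against 1 of DMSO, it was 0.86 (SE 0.27, adjusted p = 0.0158).

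Romidepsin alone left ERBB2 at 5.33, 4.35 and 7.01 CPM, overlapping the DMSO libraries. The log2 fold change was 0.19, with a 95% interval of -0.22 to 0.60 (adjusted p = 0.442), and against DMSO library 3 alone it was -0.049 (adjusted p = 0.896). In the combination ERBB2 was at 9.20, 7.41 and 9.55 CPM, above every DMSO and every romidepsin library and below every afatinib library. Against DMSO the log2 fold change was 0.81 (SE 0.19, adjusted p = 0.000175), and 0.56 (SE 0.27, adjusted p = 0.0726), no longer called, when the libraries with keratin reads were left out. That fit sets 2 combination libraries against 1 of DMSO, so the loss of the call cannot be told apart from the loss of replicates. Against romidepsin it was 0.62 (SE 0.19, adjusted p = 0.00412), and 0.61 (SE 0.20, adjusted p = 0.0107) without those libraries. Against afatinib it was -0.35, with an interval of -0.69 to -0.011 (adjusted p = 0.061), and -0.30 (SE 0.20, adjusted p = 0.201) with 2 libraries on each side, without those with keratin reads. ERBB2 levels were 3.59 to 11.9 CPM in the 4 libraries with keratin reads and 4.35 to 11.1 CPM in the 8 without. The keratinocyte list (11 of 20 genes tested, KRT6B and KRT1 at 0 throughout) summed to 361 to 410 CPM in DMSO, 287 to 290 in romidepsin, 365 to 391 in afatinib and 233 to 245 in the combination. SFN, at 177 CPM, TP63, PERP, CDH1 and KRT10 were most of that sum in DMSO and were counted in every library. KRT10 went from 41.6 CPM in DMSO to 75.7 in afatinib and 74.3 in the combination. The other 4 named genes did otherwise. SFN was at 177, 126 and 60.4 CPM and CDH1 at 42.4, 35.7 and 6.34 CPM in the same order. TP63 was at 58.8, 62.0 and 48.6 CPM and PERP at 54.4, 64.5 and 38.5 CPM. Of the 11 tested genes 3 were higher and 2 lower in afatinib (22.0% and 23.3% of all tested genes). In the combination 2 were higher and 7 lower (37.2% and 37.1%). The part of these genes in the ERBB2 result was not tested. In bulk RNA a change in the share of cells that carry a transcript and a change in RNA per cell cannot be told apart.

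Counts of EGFR, a receptor that afatinib was developed to inhibit, were 8, 7 and 5 in DMSO, 2, 2 and 13 in romidepsin, 5, 6 and 10 in afatinib and 6, 3 and 0 in the combination. The groups overlapped, and romidepsin library 3 stood above its own replicates. EGFR had 6 to 10 counts in the libraries with keratin reads and 0 to 13 in the others. The kinase-poor partner ERBB3 had 3, 2 and 4 counts in DMSO, 4, 1 and 6 in romidepsin, 8, 2 and 8 in afatinib and 6, 10 and 18 in the combination. All 3 combination libraries lay above the DMSO libraries. ERBB3 did not pass the filter; in the edgeR fit without a filter its log2 fold change in the combination against DMSO was 1.69 (SE 0.68, adjusted p = 0.037). Its mean there was 0.893 CPM ± 0.432 (SD, n = 3).

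Among the Tec-family kinases, TXK, also called RLK, a kinase of resting and type 1 helper T cells, went from near the counting limit to clear counts in romidepsin. It had 1, 2 and 2 counts in DMSO and 16, 13 and 24 in romidepsin. With afatinib it had 0, 2 and 2 counts, and with both drugs 20, 27 and 22. Every library with romidepsin lay above every library without it. The log2 fold change was 3.33 (95% interval 2.13 to 4.54, adjusted p = 3.57e-06) in romidepsin and 3.53 (interval 2.36 to 4.69, adjusted p = 4.80e-07) in the combination against DMSO. These sizes rest on DMSO libraries below the limit of 3 counts, and TXK was tested only because it was high in the groups with romidepsin, so the call and the size are not independent of that. The combination differed from romidepsin by 0.19 (interval -0.58 to 0.97, adjusted p = 0.695) and afatinib from DMSO by -0.32 (interval -2.26 to 1.61, adjusted p = 0.815). The data allow changes of any size within those intervals.

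TEC, which is expressed at low levels in T cells and rises on their activation, was at 2.08, 2.83 and 3.24 CPM in DMSO and at 6.96, 10.999 and 8.16 CPM in romidepsin. The combination libraries were at 10.8, 16.3 and 12.6 CPM, and the afatinib libraries at 2.95, 2.75 and 2.65 CPM. All 6 libraries with romidepsin lay above all 6 without it, whereas the afatinib libraries fell inside the range of DMSO. The log2 fold change against DMSO was 1.66 (SE 0.22, adjusted p = 4.34e-09) in romidepsin, a 3.17-fold difference, and 2.29 (SE 0.20, adjusted p = 3.69e-14), or 4.90-fold, in the combination. In afatinib it was 0.04, with an interval of -0.48 to 0.56 (adjusted p = 0.925). The combination was higher than romidepsin alone by 0.63 (SE 0.17, adjusted p = 0.00179), although the lowest combination library, at 10.8 CPM, lay just under the highest romidepsin library, at 10.999 CPM. The test of a departure from the sum of the drugs' log2 changes gave 0.59 (interval -0.03 to 1.22, adjusted p = 0.152).

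TXK and TEC are neighbours on chromosome 4 (GRCh38, as in the count table): TXK at chr4:48066393-48134250 and TEC at chr4:48135783-48269838, both on the minus strand, with 1532 bases between them. Since both rose in romidepsin, their promoter windows are shown, from 250 bases before to 50 after the annotated start in RefSeq (GRCh38.p14), 5′ to 3′ on the minus strand. Capitals mark GGGCGG, the core of a GC box; the motifs were picked after the sequences had been seen, and each was searched on both strands with overlapping matches counted.
TEC, chr4:48269789-48270088: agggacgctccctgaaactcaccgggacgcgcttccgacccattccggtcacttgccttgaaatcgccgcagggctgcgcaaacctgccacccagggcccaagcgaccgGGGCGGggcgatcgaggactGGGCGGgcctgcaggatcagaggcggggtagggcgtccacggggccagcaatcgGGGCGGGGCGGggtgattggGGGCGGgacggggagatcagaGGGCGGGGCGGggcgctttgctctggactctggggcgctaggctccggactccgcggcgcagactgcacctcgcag
TXK, chr4:48134201-48134500: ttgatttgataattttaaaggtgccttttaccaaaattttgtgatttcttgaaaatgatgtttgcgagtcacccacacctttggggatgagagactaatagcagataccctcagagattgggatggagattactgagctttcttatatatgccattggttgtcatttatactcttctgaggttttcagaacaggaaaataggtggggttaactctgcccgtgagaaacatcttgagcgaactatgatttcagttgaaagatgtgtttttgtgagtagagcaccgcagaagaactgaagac
The windows differ in base composition: 71.7% of the bases are G or C in TEC and 39.0% in TXK, and the median over all 35116 promoters of this length was 58.7%. The TEC window holds 7 matches of GGGCGG, pairs of which share a base, and the TXK window none. That motif occurs in 45.0% of all promoters. TXK has 1 match of TATAAA, found in 11.5% of promoters, and 2 of CCAAT, found in 34.6%, of which TEC has 1. A match is only a run of letters, and no binding was measured.

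BTK and BMX, the remaining Tec-family members, gave no level to compare. B-cell markers bear on BTK and BLK, because both genes are known from B cells. MS4A1 and IGHM were at 0 in all 12 libraries, CD79B reached at most 2 counts, while CD22 and CD79A were counted in every library. The B-cell list, with 3 of 9 genes tested, summed to 19.7 to 21.4 CPM in DMSO, 7.91 to 9.54 in romidepsin, 12.2 to 15.7 in afatinib and 6.13 to 7.79 in the combination. CD22 was most of that sum in DMSO and in afatinib, and its level was 16.2 CPM ± 1.33 in DMSO, 2.66 ± 0.648 in romidepsin, 12.3 ± 1.76 in afatinib and 3.13 ± 1.08 in the combination (SD, n = 3). The sum was lowest in the groups with romidepsin, as BLK was, but it was also lower in afatinib than in DMSO, while BLK differed by 0.11 (SE 0.17, adjusted p = 0.625) there. PAX5, another of the 3 tested genes, went the other way in romidepsin, from 0.392 CPM ± 0.0533 in DMSO to 2.63 ± 0.566 (SD, n = 3), a log2 fold change of 2.73 (SE 0.50, adjusted p = 4.89e-06). PAX5 had 4 to 5 counts per library in DMSO, 0 to 3 in afatinib, 4 to 8 in the combination and 19 to 38 in romidepsin. It thus passed the filter on low counts only through romidepsin, in which it was high, so its call and size are not independent of that. CD79A, the third tested gene, differed by -0.40 (SE 0.26, adjusted p = 0.173) in romidepsin. The part of these genes in the BLK result was not tested.

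BLK had the highest level per length of the 9 genes in DMSO and the only 1 of the 4 tested members that fell. Its libraries were at 8.50, 7.77 and 9.72 CPM in DMSO and at 3.18, 3.32 and 2.69 CPM in romidepsin. Afatinib libraries were at 9.12, 8.05 and 10.9 CPM, and combination libraries at 2.07, 1.60 and 2.44 CPM. All 6 libraries with romidepsin were below all 6 without. The log2 fold change against DMSO was -1.51 (SE 0.20, adjusted p = 8.55e-09) in romidepsin, a 2.85-fold lower level, and -2.08 (SE 0.21, adjusted p = 2.43e-12), or 4.24-fold lower, in the combination. In afatinib it was 0.11, with an interval of -0.23 to 0.46 (adjusted p = 0.625).

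Each combination library had less BLK than each romidepsin library. That difference, -0.57 (SE 0.25, adjusted p = 0.0487), lay at the threshold, and 13 of 20 alternative analyses did not call it (adjusted p 0.031 to 0.205 over the 20). One was DESeq2 with -0.55 (adjusted p = 0.083), and another was the fit without combination library 2, with -0.43 (adjusted p = 0.205).

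The BLK row may hold some reads of its antisense neighbour. AC022239.1, annotated on the opposite strand at chr8:11552488-11564694, shares 65 exon bases with BLK, 1.33% of the exon bases of BLK. The counting used no strand, so reads of the pair cannot be told apart by strand. AC022239.1 was counted at 97, 59 and 121 in DMSO and at 40, 22 and 32 in romidepsin, and at 92, 108 and 103 in afatinib and 29, 25 and 24 in the combination. It moved as BLK did, with a log2 fold change of -1.52 (SE 0.22, adjusted p = 4.30e-08) in romidepsin and -1.97 (SE 0.23, adjusted p = 7.56e-11) in the combination. The ratio of BLK to AC022239.1 counts ran from 0.787 to 1.33 over the 12 libraries, with both extremes in libraries with afatinib. How much of either row comes from the other strand was not tested.

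Genes around the other called members did not all share their direction, as the plot of the loci shows. ERBB2 shares 571 exon bases with MIEN1 and 144 with PGAP3 (5.53% and 1.40% of its exon bases), both on the opposite strand. There too reads cannot be told apart by strand, and the part of such reads in the ERBB2 row was not tested. MIEN1 differed from DMSO by 0.03 (SE 0.13, adjusted p = 0.887) in afatinib and 0.07 (SE 0.12, adjusted p = 0.634) in the combination. PGAP3 rose by 0.34 (SE 0.12, adjusted p = 0.0171) in afatinib and fell by 2.33 (SE 0.15, adjusted p = 4.42e-19) in the combination, where ERBB2 rose. Beyond TEC, SLAIN2 rose by 0.34 (SE 0.06, adjusted p = 4.82e-06) in romidepsin and NFXL1, on the far side of TXK, differed by -0.07 (SE 0.19, adjusted p = 0.778). On either side of ERBB2, TCAP rose by 0.67 (SE 0.19, adjusted p = 0.00158) and IKZF3 fell by 0.96 (SE 0.09, adjusted p = 8.10e-14) in the combination, and in afatinib TCAP differed by 0.08 (adjusted p = 0.769) and IKZF3 fell by 0.51 (adjusted p = 3.07e-06).

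Of the genes next to BLK, NEIL2 also fell in romidepsin, by 0.92 (SE 0.30, adjusted p = 0.00615), and differed by -0.13 (SE 0.27, adjusted p = 0.682) in the combination, where BLK fell further. FAM167A, on the other side, differed from DMSO by -0.27 (SE 0.16, adjusted p = 0.16) in romidepsin. For the untested members, the nearest tested genes are SEC61G and LANCL2 for EGFR, RPS26 and PA2G4 for ERBB3, CPS1 and IKZF2 for ERBB4, TIMM8A and RPL36A for BTK, and PIGA and CA5BP1 for BMX. In DMSO they ranged from 0.360 CPM for CPS1 to 244 CPM for PA2G4.

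**Figure D3:**
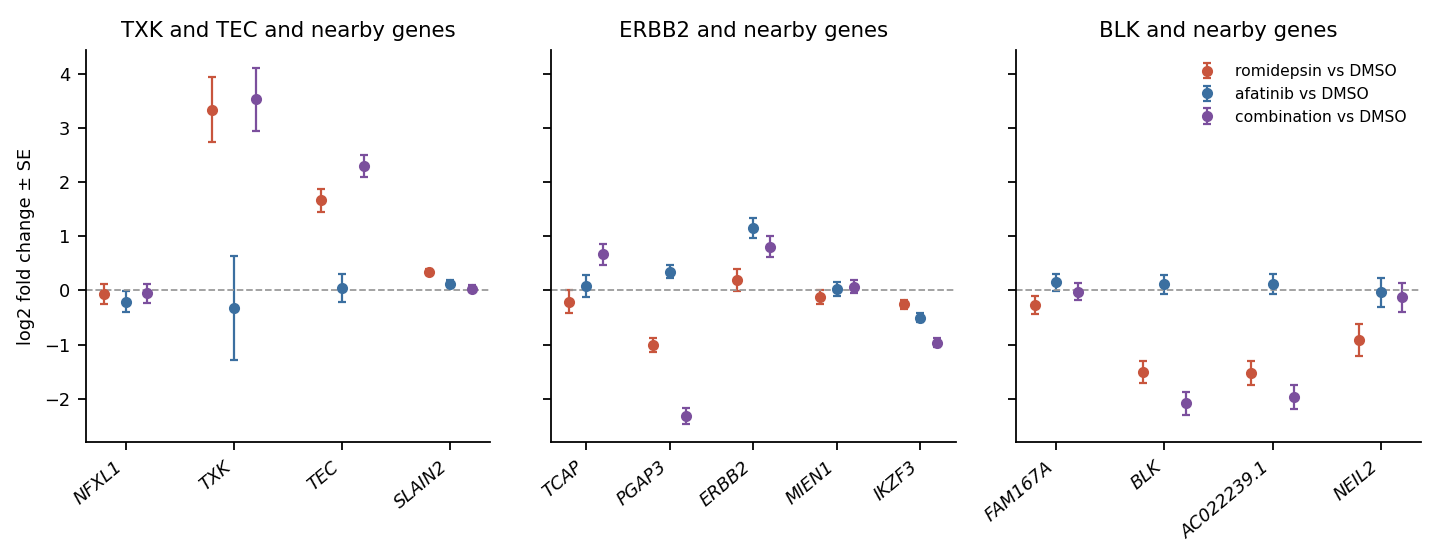
Log2 fold change against DMSO (y axis, points, with SE as bars) in romidepsin, afatinib and the combination for the called members and the nearest tested or overlapping genes, grouped by locus (x axis, gene names). TXK and TEC rise while NFXL1 stays near 0, ERBB2 and PGAP3 part in the combination (0.81 and -2.33), and BLK and AC022239.1 fall together.

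None of the 4 tested members passed the interaction test, which asks whether the combination's log2 fold change departs from the single-drug changes added up (30.2% of all tested genes were called there). By edgeR 2 of the 4 tested members had an unadjusted p under 0.05, and by DESeq2 none was called. For ERBB2 the value was -0.54 (interval -1.07 to -0.0042, adjusted p = 0.124; -0.25, SE 0.34, adjusted p = 0.666, without the libraries with keratin reads) and for BLK -0.69 (interval -1.30 to -0.08, adjusted p = 0.0813). Without DMSO library 3, ERBB2 was called with -0.72 (adjusted p = 0.0466). For TXK it was 0.52, with an interval of -1.60 to 2.63 (adjusted p = 0.762), which covers changes of several-fold either way.

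Levels can be set against each other per length, as CPM per kilobase (RPKM, with the exon length in the count table). In DMSO the order of the members was BLK at 1.77 RPKM, TEC at 0.679, ERBB2 at 0.484, EGFR at 0.048, TXK at 0.044 and ERBB3 at 0.030, with ERBB4, BTK and BMX at 0. BLK stood apart from TEC, whereas TEC overlapped ERBB2, and EGFR, TXK and ERBB3 overlapped in turn. In romidepsin TEC led at 2.17 RPKM, and BLK (0.625), ERBB2 (0.539) and TXK (0.464) overlapped as neighbours. In afatinib BLK (1.91), ERBB2 (1.07) and TEC (0.695) were each apart from the next. In the combination TEC led at 3.31 RPKM, followed by ERBB2 (0.845), TXK (0.533) and BLK (0.416), of which TXK and BLK overlapped. BLK thus went from first to last of the 4 tested members.

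All of these lay below JAK3 and MAP2K7 in DMSO, romidepsin and afatinib. JAK3, the kinase of the interleukin-2 receptor gamma chain, was at 37.2 RPKM ± 3.05 in DMSO, 12.1 ± 0.181 in romidepsin, 29.4 ± 0.974 in afatinib and 10.2 ± 0.456 in the combination (SD, n = 3). MAP2K7, a kinase that activates JNK, was at 14.7 ± 0.941, 6.55 ± 0.246, 11.6 ± 0.435 and 3.70 ± 0.097 RPKM in the same order. In the combination the range of TEC, 2.702 to 4.08 RPKM, overlapped that of MAP2K7.

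Summed over JAK3 and the 8 members with the cysteine codon, the level was 40.2 RPKM ± 3.37 in DMSO, 15.9 ± 0.688 in romidepsin, 33.2 ± 0.646 in afatinib and 15.4 ± 0.901 in the combination (SD, n = 3). The 8 members together were 7.50% ± 0.591 of this sum in DMSO, 24.2% ± 2.19 in romidepsin, 11.4% ± 1.27 in afatinib and 33.3% ± 2.18 in the combination, and JAK3 was the rest. TEC alone was 1.68% ± 0.311 of it in DMSO and 21.4% ± 3.54 in the combination. These shares describe RNA and were not tested, and the sum they refer to was itself lower in the groups with romidepsin. MAP2K7, whose position the alignment did not resolve, was left out of the sum. Its level was 14.7 RPKM in DMSO and 3.70 in the combination, so with it in the sum these shares would be lower.

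**Figure D4:**
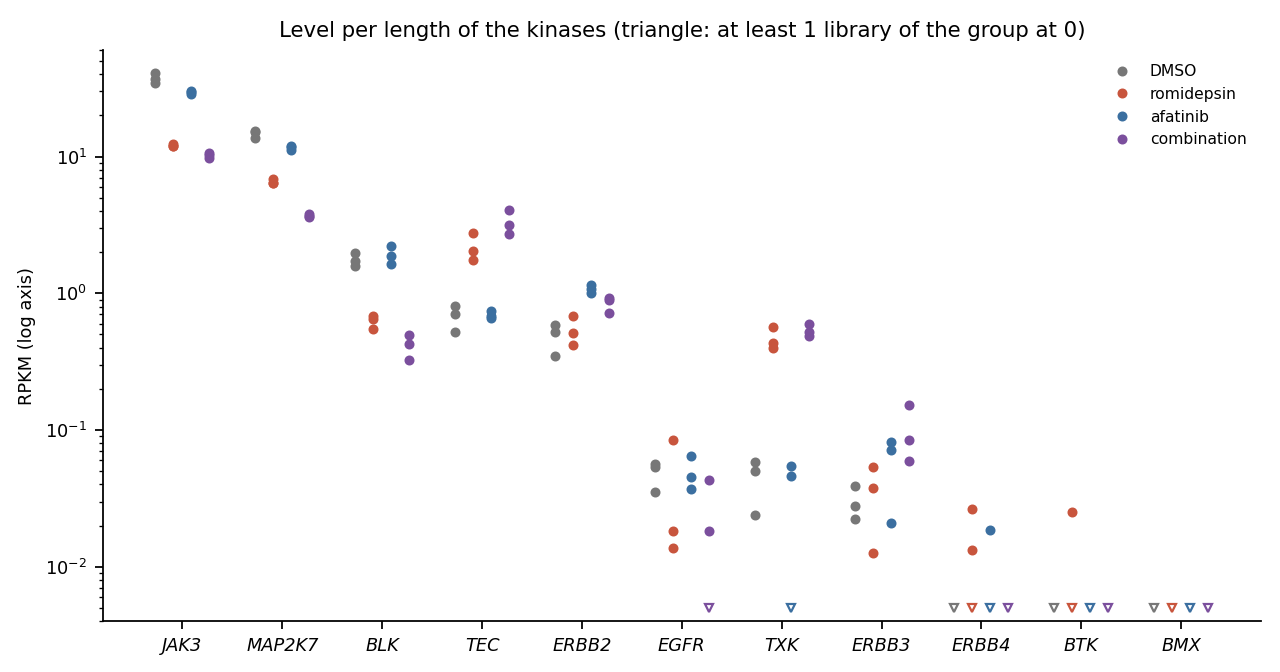
Level per length (RPKM, logarithmic y axis) of the 9 members and of JAK3 and MAP2K7 (x axis) in each library (points) by group; a triangle at the bottom marks a group with at least 1 library at 0. JAK3 is highest in every group, at 37.2 RPKM in DMSO, and TEC reaches MAP2K7 in the combination.

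Across the 12 libraries the log2 CPM of TXK and TEC ran together (Pearson r = 0.945), and both ran against BLK (r = -0.957 for TXK and -0.962 for TEC). ERBB2 had r of -0.069, 0.020 and 0.037 with TXK, TEC and BLK. The points share the 4 groups, so these values mainly restate the group differences. Among 10272 tested genes with a mean of at least 5 CPM, the genes with the profile most like ERBB2 were PLXNB3 (r = 0.972), CCDC9B (0.925) and MAN1B1 (0.922). Those most like TEC were STX12 (0.992), LYRM7 (0.987) and LCORL (0.984), and those most like BLK were ZC3HAV1L (0.992), GMEB2 (0.989) and FAIM (0.988). PLXNB3, for example, was at 8.21 CPM ± 1.56 in DMSO, 8.70 ± 1.11 in romidepsin, 14.3 ± 1.22 in afatinib and 12.9 ± 0.917 in the combination (SD, n = 3).

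The ligands of the ERBB receptors were mostly near the counting limit as well. Of 11 ligand genes 3 passed the filter: TGFA, HBEGF and NRG4. EGF was at a mean of at most 0.058 CPM and AREG at most 0.062 CPM in any group, and BTC and NRG3 were at 0 in all 12 libraries. In romidepsin 1 of the 3 rose and none fell, in afatinib 2 rose, and in the combination 1 rose. The median log2 fold change of the 3 was 0.22, 0.62 and 0.13 in that order. Over all tested genes 31.1% were higher and 31.5% lower in romidepsin, 22.0% and 23.3% in afatinib and 37.2% and 37.1% in the combination. TGFA, a ligand of EGFR, went from 2.43 CPM ± 0.324 in DMSO to 4.41 ± 0.364 in romidepsin (log2 fold change 0.86, SE 0.25, adjusted p = 0.0027). HBEGF, which binds EGFR and ERBB4, went from 2.07 ± 0.416 to 3.53 CPM ± 0.840 in afatinib (0.77, SE 0.28, adjusted p = 0.02).

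Below the receptors, 27 of 31 adaptors and regulators of ERBB signalling were tested. In romidepsin 19 rose and 2 fell, in afatinib 9 rose and 8 fell, and in the combination 17 rose and 6 fell. Their median log2 fold change was 0.42, 0.16 and 0.42. These counts stand beside the shares over all tested genes given with the ligands. LRIG1, a membrane protein that lowers ERBB receptor levels, rose by 2.23 (SE 0.13, adjusted p = 3.55e-21) in the combination. CBLB, a ubiquitin ligase that restrains receptor signalling, rose by 2.27 (SE 0.17, adjusted p = 2.16e-16) in romidepsin. RHBDF1, an inactive rhomboid protein that governs the release of ERBB ligands, rose by 1.92 (SE 0.18, adjusted p = 2.42e-12) in afatinib, while in romidepsin it differed by 0.27 (adjusted p = 0.28). RHBDF1 and ERBB2 were thus both called in afatinib and not in romidepsin; the difference between the single drugs was not tested. MUC1, a mucin that binds ERBB receptors, fell by 2.96 (SE 0.20, adjusted p = 1.30e-18) in the combination.

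Of 31 genes around the Tec kinases 22 were tested, with 5 higher and 11 lower in romidepsin, 4 higher and 5 lower in afatinib, and 7 higher and 11 lower in the combination. The median log2 fold change was -0.30, -0.09 and -0.12. The shares over all tested genes given with the ligands apply to these counts too. PIK3R5, a regulatory subunit of the PI3K gamma that makes the lipid Tec kinases bind, rose by 3.79 (SE 0.19, adjusted p = 1.63e-22) in romidepsin. PLCG2, the phospholipase C gamma of B cells and a Tec-kinase substrate, rose by 2.06 (SE 0.18, adjusted p = 4.26e-14) in the combination. SH3BP5, a binding partner of BTK, rose by 1.93 (SE 0.21, adjusted p = 5.04e-11) there. ZAP70, the T-cell receptor kinase upstream of the Tec kinases, fell by 1.81 (SE 0.06, adjusted p = 2.82e-29), from 408 CPM ± 26.9 in DMSO to 116 ± 10.1 (SD, n = 3). ZAP70 is also among the T-cell markers, whose summed level was 2485 to 2595 CPM in DMSO, 866 to 894 in romidepsin, 1930 to 1977 in afatinib and 564 to 594 in the combination. In DMSO IL2RA (1225 CPM), CCR4 (464) and ZAP70 itself were most of that sum. Of 13 tested T-cell markers 1 was higher and 10 lower in romidepsin (31.1% and 31.5% of all tested genes). In the combination 0 were higher and 11 lower (37.2% and 37.1%). PTPRC, also on that list, had means of 22.0 CPM in DMSO, 42.9 in romidepsin and 17.6 in the combination. For comparison, other genes around the Tec kinases were named after their values were seen. PIK3CG, the catalytic subunit of PI3K gamma, had means of 0.0292 CPM in DMSO, 0.904 in romidepsin and 0.12 in the combination. PIK3CD, another PI3K subunit, had means of 704, 260 and 234 CPM in the same order, and PLCG1 of 90.9, 90.6 and 102.

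For the SRC family and its regulators, to which BLK belongs, 11 of 14 further genes were tested. In romidepsin 5 rose and 4 fell, in afatinib 1 rose and 4 fell, and in the combination 4 rose and 5 fell, with medians of 0.46, -0.08 and -0.21. In the combination CSK, which phosphorylates the inhibitory tail of SRC-type kinases, fell by 1.49 (SE 0.07, adjusted p = 1.04e-24), its relative MATK fell by 2.41 (SE 0.16, adjusted p = 8.72e-19) and the phosphatase PTPN6 fell by 3.24 (SE 0.08, adjusted p = 1.47e-35). Other genes of the list that restrain these kinases, named after their values were seen, did otherwise: PAG1, the membrane anchor of CSK, rose by 0.77 (SE 0.05, adjusted p = 1.00e-17), and the phosphatase PTPN22 differed by -0.21 (SE 0.14, adjusted p = 0.178). FRK, an epithelial relative of the family, rose by 2.46 (SE 0.46, adjusted p = 6.17e-06), from 0.376 CPM ± 0.238 in DMSO to 2.18 ± 0.402 (SD, n = 3). FRK had 1 to 6 counts per library in DMSO, 4 to 7 in afatinib, 11 to 24 in romidepsin and 19 to 32 in the combination. It passed the filter on low counts only through the groups with romidepsin, in which it was high, so its call and size are not independent of that. The shares of genes called in each direction over all tested genes were 31.1% higher and 31.5% lower in romidepsin, 22.0% and 23.3% in afatinib and 37.2% and 37.1% in the combination.

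**Figure D5:**
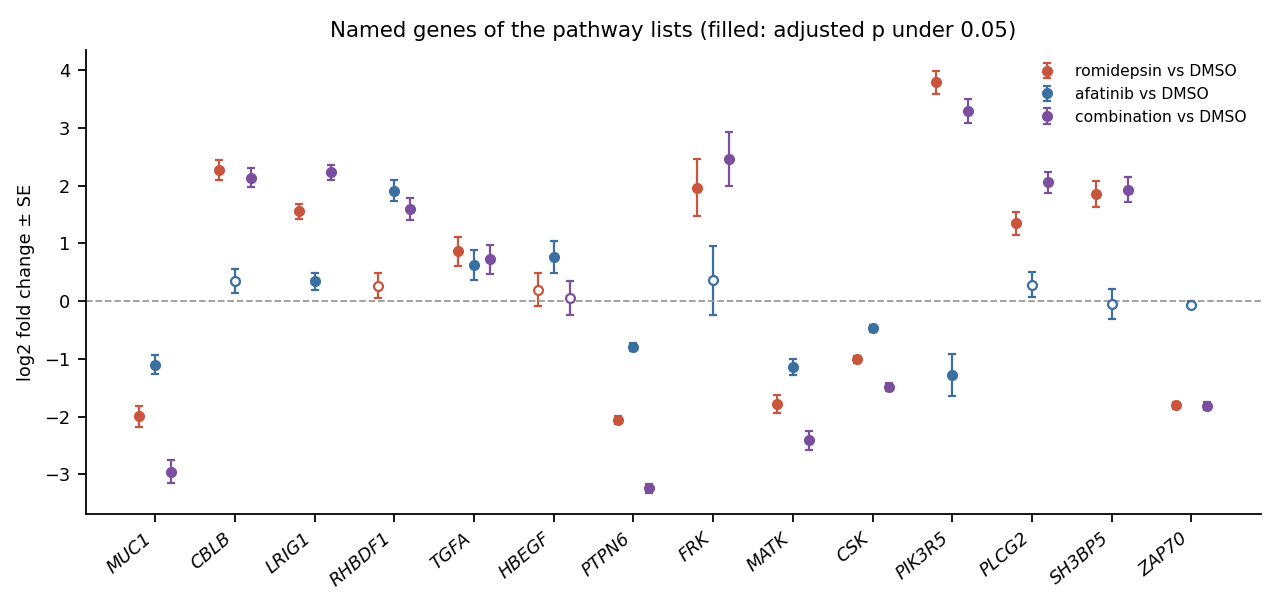
Log2 fold change against DMSO (y axis, points, with SE as bars) in romidepsin, afatinib and the combination for the named genes of the 4 pathway lists (x axis); filled points have an adjusted p under 0.05. PTPN6 falls most in the combination (-3.24), PIK3R5 rises most in romidepsin (3.79), and RHBDF1 rises in afatinib (1.92).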

How the data were processed

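RNA of 12 MyLa libraries in 4 groups of 3 was analysed from the raw count table. Per the file headers, the authors counted read pairs per gene name with featureCounts 2.0.0 and GENCODE 31, with both ends mapped, without chimeric pairs and with no strand option; the submitters' processing notes name STAR 2.7.9a, the build GRCh38.p12 and DESeq2 1.38.1. The deposited counts are whole numbers without scaling. A second deposited table was not used. Genes were filtered with filterByExpr (16208 left), scaled by TMM and tested with edgeR 4.0.16 in R 4.3.3 (glmQLFit, robust, and glmQLFTest, two-sided) in one fit of 4 group means, with p-values adjusted after Benjamini and Hochberg for the whole tested table and called under 0.05. The biological coefficient of variation was 6.13%. SE is the log2 fold change divided by the root of the F statistic. The script was tested on simulated data. Alternatives were DESeq2 1.42.0, other scalings and filters, fits of the compared groups only, the replicate number as a block, each library left out and the libraries with over 10 KRT5 counts left out. Replicates differed by more than counting noise (chi-square per degree of freedom 2.05 to 8.31). Translations were aligned with MAFFT 7.526.

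The members, gene lists and alternatives were chosen with earlier results of these data known. All 9 members, the further kinases, genes overlapping or next to a member, up to 4 genes of each pathway list with the largest called change against DMSO and a mean of at least 1 CPM, and the 3 genes most correlated with each tested member of at least 1 CPM mean were named. Myeloid, mast cell and platelet, and endothelium and fibroblast marker lists (4 of 12, 1 of 8 and 3 of 8 genes tested) summed to 127 to 132, 0.701 to 1.00 and 173 to 199 CPM in DMSO, and to 38.7 to 42.5, 1.15 to 2.44 and 14.7 to 17.3 CPM in the combination. CD33 (95.5 CPM) and ITGAM (25.2) were most of the myeloid sum in DMSO. COL1A1 (119) and COL3A1 (63.1) were most of the endothelium and fibroblast sum there. PECAM1, CDH5 and VWF reached at most 1, 1 and 2 counts in any library, and DCN and LUM were at 0. In the combination 2 tested myeloid markers were higher and 2 lower (37.2% and 37.1% of all tested genes). Whether such cells were present was not tested. Results on 2 genes of the lists are not reported here.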

Additional observations from a re-analysis of the deposited data

How the results depend on the processing

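Of the counts of members called or expressed, 133 of 134 alternative values stayed within 1.5 times the reported one. The exception was the interaction without DMSO replicate 3, with 1 member called; over the fits that left out 1 library its range was 0 to 1. The number of members expressed was 4, with 4 to 5 when 1 library was left out and 6 at a mean of at least 0.5 CPM. Some fold changes that were not called changed sign. In the fits without the 4 libraries with keratin reads, ERBB2 in romidepsin was -0.049, TEC in afatinib -0.15 and BLK in afatinib -0.14, each against 1 remaining DMSO library, assumed to vary like the other groups. Over the fits that left out 1 library each, ERBB2 in romidepsin ranged from -0.019 (without romidepsin replicate 3) to 0.36, and TXK in afatinib from -0.74 to 0.21 (without afatinib replicate 1). TEC in afatinib ranged from -0.11 (without DMSO replicate 1) to 0.19, and BLK in afatinib from -0.0034 (without afatinib replicate 3) to 0.21. ERBB2 in the combination against afatinib was called in 4 of 20 alternatives. The cause was not tested. All other called fold changes of members, apart from those given in the report for ERBB2 and BLK, stayed called in every alternative.

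The replicate numbers did not pair the libraries: 18 correlations of same-numbered libraries between groups ran from -0.0899 to 0.0894. With the replicate block the counts of members called were 3, 1, 4, 3, 3 and 0 in the order romidepsin, afatinib and combination against DMSO, combination against romidepsin and against afatinib, and interaction, as without it. Scaling by library size alone moved the median log2 fold change of all genes to 0.10 in afatinib and the share of higher calls from 48.6% to 62.2%. Calls in afatinib over all genes went from 7351 to 4162 without the 4 keratin libraries, a fit of 2 afatinib libraries against 1 of DMSO, so the fall cannot be told apart from the loss of replicates. Depth limits EGFR, ERBB3, ERBB4, BTK and BMX to counts, and TXK without romidepsin to 0 to 2 counts.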
